A study of Mus musculus with 22 samples.

Results

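The genes described here handle arginine and nitric oxide in microglia, the resident macrophages of the brain. They were chosen by symbol (Nos2, Arg1, Arg2, Ass1, Slc7a2 and Gch1), and all 6 were found among the 15725 symbols of the expression table and passed the filter on low values. The table holds 22 RNA sequencing libraries of primary mouse microglia, and the study asked what 2 ways of suppressing autophagy, and CLA, do to microglia activated with lipopolysaccharide (LPS), a component of the bacterial outer membrane. Microglia were shaken off mixed glial cultures from the cortex of C57BL/6 mice in the first days of life, and polyadenylated RNA was sequenced. Every culture received 100 ng/ml LPS for 24 h, and no culture without LPS was analysed here. The LPS group (n = 3) had nothing else. The LPS+Baf A1 group (n = 5) also had 10 nM bafilomycin A1, a blocker of the proton pump that acidifies lysosomes. In the LPS+CLA group (n = 6), 50 nM CLA was given, which the labels do not spell out. The LPS+siAtg5 group (n = 5) had been transfected for 48 h with 50 nM siRNA against Atg5, a gene needed to build autophagosomes, and its comparator in the study's design is LPS+dNC (n = 3). The labels do not spell out dNC either, and their protocol names a control siRNA without its dose.

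Arginine enters macrophages through cationic amino acid transporters, of which Slc7a2 is the one that inflammatory signals induce. Inside the cell the synthase and the arginases compete for it. The inducible nitric oxide synthase, Nos2, turns arginine into nitric oxide and citrulline and needs tetrahydrobiopterin as a cofactor, whose synthesis starts with Gch1. Ass1 begins the return of citrulline to arginine. The arginases split arginine into ornithine and urea, Arg1 in the cytosol and Arg2 in mitochondria, and ornithine feeds the synthesis of polyamines and proline. In mouse macrophages Nos2 is a classic marker of activation by LPS and interferon, and Arg1 one of activation by interleukin 4.

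On GRCm38 (GENCODE annotation; the authors' own build is not stated), all 6 are protein-coding genes. Nos2 lies on the plus strand of chromosome 11 from 78920787 to 78960254, and Arg1 on the minus strand of chromosome 10 from 24915221 to 24927484. Arg2 spans chromosome 12 from 79130777 to 79156301 on the plus strand. Ass1 spans chromosome 2 from 31470207 to 31520672 on the plus strand. Slc7a2 is on the plus strand of chromosome 8 from 40862396 to 40922308, and Gch1 on the minus strand of chromosome 14 from 47153895 to 47189413.

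The arginases are the members closest to each other in sequence, so their coding sequences were aligned to see whether reads of one could be counted for the other. Over 963 aligned coding bases, 626 (65%) were identical, with no identical run longer than 12 bases. Counted in runs of 31 bases, Nos2 and Arg1 shared none of their transcript sequence with other genes, Gch1 1.3% and Slc7a2 8.8%. Ass1 shared 43.1%, with the processed pseudogene Gm5424 on chromosome 10. Arg2 shared 23.6%, and its 3′ end overlaps 285 bases of Vti1b, a gene on the opposite strand that was at 45.9 to 52.3 FPKM in LPS+siAtg5, at 38.5 to 46.1 FPKM in LPS+CLA and at 40.45 FPKM or less elsewhere. The gene sharing most with Slc7a2 was Gm26584, which overlaps its start on the opposite strand. The sources used here do not say whether counting used strand, so the values of Arg2 and Slc7a2 carry this uncertainty. Ass1 carries another, since how reads matching both it and Gm5424 were assigned is not stated.

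RefSeq promoters (GRCm38.p6) were matched for 2 of the 6 genes, Ass1 and Gch1. They are printed because these genes moved to very different extents, the highest group mean being 5.51-fold over the lowest for Ass1 and 1.47-fold for Gch1. Each line gives the 250 bases before the RefSeq start site, 5′ to 3′ on the strand of the gene, with motif matches in capitals. The Ass1 window is chr2:31470020-31470269 (plus strand, 75.6% GC) and the Gch1 window chr14:47189414-47189663 (minus strand, 59.2% GC), against a median of 52.4% GC over all promoters.
Ass1: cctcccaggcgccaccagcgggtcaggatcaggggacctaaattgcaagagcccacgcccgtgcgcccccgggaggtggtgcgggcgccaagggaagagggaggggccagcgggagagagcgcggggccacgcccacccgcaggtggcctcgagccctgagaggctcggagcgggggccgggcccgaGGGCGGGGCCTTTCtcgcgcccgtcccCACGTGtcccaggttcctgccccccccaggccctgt
Gch1: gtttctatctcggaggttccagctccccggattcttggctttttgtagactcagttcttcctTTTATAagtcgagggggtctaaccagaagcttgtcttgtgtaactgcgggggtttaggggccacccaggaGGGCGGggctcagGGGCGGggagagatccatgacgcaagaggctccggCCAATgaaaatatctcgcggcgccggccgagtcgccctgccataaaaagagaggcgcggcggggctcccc
Both strands were searched. The Ass1 window held the NF-kB core GGGNNTTTC 58 bases before the start, which 3.7% of 32851 promoters hold, overlapping by its end a GC box GGGCGG at 63 bases (32.7% of promoters). It also held the E-box CACGTG at 36 bases (6.0%). By the GENCODE start of Ass1 at 31470207, these matches in the Ass1 window lie within the gene and not before it. The Gch1 window held 2 GC boxes, the CCAAT box CCAAT at 70 bases (33.8%) and TATAAA, on the opposite strand, at 188 bases (12.4%). Neither window held the IRF core GAAANNGAA (7.1% of promoters), the C/EBP core TTGCNNAA (9.6%) or the C/EBP-ATF element TGATGNAA (3.5%).

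Some facts of the libraries bear on all that follows. Values are FPKM, fragments scaled for gene length and library size, so levels of different genes can be compared, but the depth of each library is unknown. For the 3 LPS+dNC libraries no unit is named, and it is not stated whether they were normalized with the others. Their sums, 556496 to 575125 FPKM, were above those of all other libraries (469750 to 525127 FPKM), and the 2 lines of the table's 1 repeated symbol differ only in these 3 columns. Atg5 was at 12.6 to 13.5 FPKM in the LPS+siAtg5 libraries, below the 21.4 to 24.3 FPKM of LPS+dNC and the 19.8 to 20.4 FPKM of LPS. Of 12 microglia markers, 10 to 12 had a mean of at least 1 FPKM in each group, and their sum was 2118 to 3431 FPKM. None was at 0 in a whole group, but Cx3cr1 was at 0.11 to 0.27 FPKM in LPS+dNC against at least 3.05 FPKM elsewhere, and Sall1 was at 1.16 FPKM or less outside LPS+siAtg5. The LPS+siAtg5 libraries differed from the rest in the median over all symbols (4.53 to 4.8 FPKM against 2.62 to 3.25 FPKM). Markers of astrocytes, all 12 in the table, summed to 370.8 to 431.6 FPKM in LPS+siAtg5 and to 6.09 to 29.6 FPKM elsewhere, with 10 of 12 and 4 to 7 of 12 at a mean of at least 1 FPKM. Gfap was at 114 to 134 FPKM against 3.99 FPKM or less, and Gjb6 was at 0 in every LPS and LPS+dNC library. Sums were likewise higher in LPS+siAtg5 for 10 neuronal markers (59.8 to 74.9 against 0.9 to 17.5 FPKM). They were also higher there for 11 markers of fibroblasts, mural and endothelial cells (93.8 to 126.4 against 7.91 to 30.7 FPKM), with Rgs5 at 0 in all other groups. This second rise was carried chiefly by Acta2, Col1a1, Col1a2 and Col3a1 (knockdown means 47.7, 21.1, 16.5 and 8.53 FPKM), and Pdgfrb was highest there too (1.49 FPKM). The endothelial genes Pecam1 and Vwf did not share it (2.51 against 4.215 FPKM with CLA, 0.106 against 0.303 FPKM with LPS alone). Cdh5 differed little (group means 1.88 to 2.44 FPKM), and Dcn was lower in the knockdown (6.21 FPKM) than with CLA (10.6 FPKM). In LPS+siAtg5 the 10 oligodendrocyte lineage markers summed to 101.8 to 107.2 FPKM, against 61.8 to 92.8 FPKM elsewhere, with Mog at 0 in LPS+Baf A1 and LPS+CLA. Cnp made up most of that sum in each group and was highest in LPS+dNC (mean 75.4 FPKM, against 69.6 FPKM for the knockdown). Mbp, Olig1 and Mag were highest in the knockdown (15.4, 7.85 and 4.98 FPKM). The 8 border macrophage and monocyte markers summed to 16.4 to 59.0 FPKM in LPS+dNC, 25.4 to 33.0 in LPS+siAtg5, 105.6 to 119.1 in LPS and 162.9 to 288.6 in the other groups. Most of this sum was Pf4 throughout, its mean being 97.7 for LPS alone, 208.9 with bafilomycin A1 and 243.9 FPKM with CLA. Mrc1 went the other way, with means of 12.4, 5.10 and 4.86 FPKM in the same order. Cd209f and F13a1 were highest with CLA (3.14 and 1.745 FPKM), and Lyve1 and Cd163 stayed at 0.03 FPKM or less by the means. The sum therefore does not speak for this cell type as a whole. Of 9 neutrophil and lymphocyte markers 2 were in the table, and their sum was 129 to 633 FPKM in LPS+dNC against 4.11 to 33.7 FPKM elsewhere. Nearly all of it was S100a8, at 129.07 to 632.49 FPKM in LPS+dNC, while Ms4a1 was at 0.09 to 0.26 FPKM there. The part of these cell types in the results below was not tested. In bulk libraries fewer cells of a type and less RNA per cell cannot be told apart. LPS replicate 3, LPS+dNC replicate 1 and LPS+CLA replicate 2 lay apart from their group mates. The SD across genes of their log2 difference to their mates was 0.273 to 0.284, 0.351 to 0.388 and 0.267 to 0.273, against at most 0.187 between the others of those groups. The labels do not tie replicates to separate cultures or animals. Every p-value therefore rests on the spread between these libraries alone, which may be technical.

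Each treatment left a different pattern on the 6 genes. A gene was called where the adjusted p of limma, over 11070 genes tested on log2(FPKM + 1), was under 0.05, and changes below are on that log2 scale with their standard errors. With bafilomycin A1, Slc7a2 and Gch1 rose and Arg2 and Ass1 fell relative to LPS, while Nos2 and Arg1 were not called. Called changes were common: 32.7% of all genes tested were called higher in that comparison and 25.1% lower. With CLA, Arg1 rose and Nos2, Arg2, Ass1 and Gch1 fell, with Slc7a2 not called, against 40.4% of all genes called higher and 22.6% lower. With Atg5 knockdown all 6 genes fell relative to LPS+dNC, where 59.6% of all genes were called higher and 21.6% lower. The median change of the 6 genes there was -1.63, against a median of 0.34 over all genes tested. Relative to that median the changes were -5.27 for Nos2, -2.78 for Slc7a2, -2.12 for Arg2, -1.81 for Arg1, -1.25 for Ass1 and -0.54 for Gch1. All 6 were also called lower after median-of-ratios scaling and after quantile normalization of the libraries, which put the median of all genes at 0.06 and -0.02. These scalings changed the balance over all genes to 42.4% higher and 36% lower, and to 38% and 39.4%. For CLA they changed it to 30.4% and 31.2%, and to 33.4% and 28.4%, with the same members called in the same directions. The bafilomycin A1 and CLA comparisons use the same 3 LPS libraries.

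**Figure D1:**
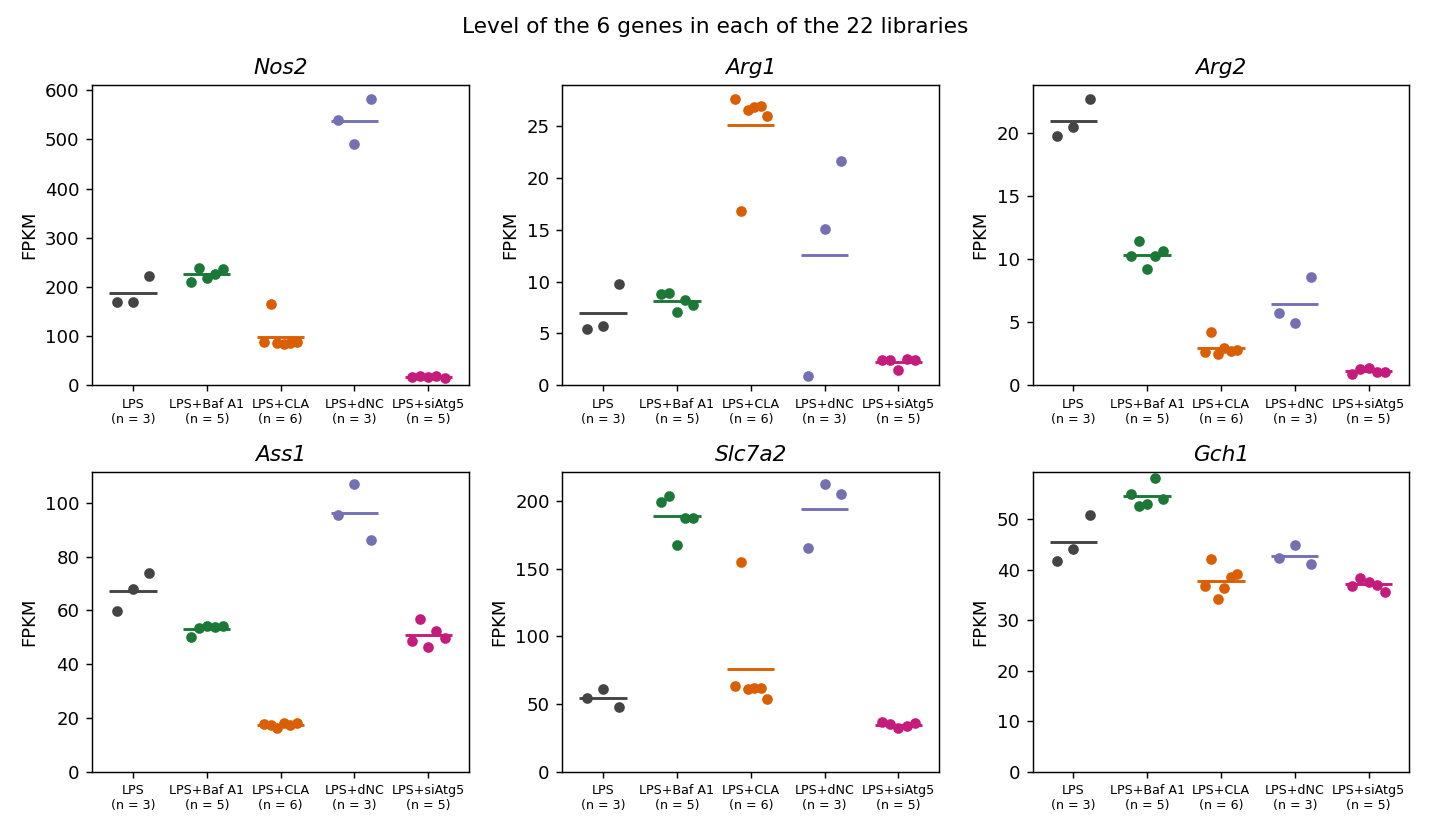
Level of each gene (vertical axis, FPKM from 0, with its own scale per gene) in every library, 1 point per library in 5 groups, with a bar at the group mean. Nos2 and Slc7a2 are highest in LPS+dNC, Slc7a2 is about as high in LPS+Baf A1, Arg1 is highest in LPS+CLA, and Arg2 is highest in LPS alone.

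Slc7a2, the arginine importer, was the gene that bafilomycin A1 raised most among the 6. Its level in the LPS libraries was 54.2, 61.0 and 47.5 FPKM, and in the LPS+Baf A1 libraries 199.5, 204, 167, 188 and 188 FPKM. Every bafilomycin A1 library was above every LPS library, 3.49-fold higher by the means (54.2 ± 6.71 against 189 ± 14.1 FPKM, SD, n = 3 and 5), a log2 change of 1.79 (SE 0.22, adjusted p = 6.68e-07). The LPS+dNC libraries, at 165, 213 and 205 FPKM, were in the same range as bafilomycin A1 (difference 0.03, 95% interval -0.42 to 0.49, adjusted p = 0.904). The LPS+siAtg5 libraries were at 36.7, 35.25, 32.1, 34.1 and 35.7 FPKM, the lowest of the 5 groups and without overlap with any other. Slc7a2 fell by 2.44 against LPS+dNC (SE 0.22, adjusted p = 2.07e-09, 5.59-fold) and by 0.62 against LPS (SE 0.22, adjusted p = 0.0144, 1.56-fold). Without LPS replicate 2 the fall against LPS was -0.53 and not called (adjusted p = 0.0657, the highest of a range down to 1.02e-08 over the alternatives). In LPS+CLA the lowest, median and highest values were 53.8, 61.7 and 155 FPKM. The highest was replicate 2, and the next library was at 63.4 FPKM. The mean of 76.2 ± 38.8 FPKM (SD, n = 6) gave a change of 0.38 against LPS (SE 0.21, 95% interval -0.06 to 0.82, adjusted p = 0.123), and without that library 0.16 (adjusted p = 0.101). Slc7a2 was lower with CLA than with bafilomycin A1 in every library (-1.41, SE 0.18, adjusted p = 1.6e-06).

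Ass1, which starts the recycling of citrulline, was lowest with CLA. It was at 59.8, 67.9 and 74.0 FPKM in LPS, and in LPS+CLA the lowest, median and highest of 6 libraries were 16.2, 17.5 and 18.2 FPKM. These groups were far apart and LPS+CLA replicate 2, at 17.2 FPKM, sat within its group for this gene. The fall was 3.85-fold, from 67.3 ± 7.13 to 17.5 ± 0.718 FPKM (SD, n = 3 and 6), or -1.88 (SE 0.07, adjusted p = 3.63e-16). In LPS+Baf A1 Ass1 was at 50.2, 53.5, 54.0, 53.7 and 54.0 FPKM, all below the LPS libraries (-0.33, SE 0.07, adjusted p = 0.000322). The LPS+dNC libraries were highest, at 95.6, 107 and 86.1 FPKM, and those of LPS+siAtg5 were at 48.5, 56.8, 46.3, 52.3 and 49.9 FPKM. LPS+dNC was above LPS by 0.51 (SE 0.08, adjusted p = 7.2e-06), and LPS+siAtg5 above LPS+CLA by 1.49 (adjusted p = 4.27e-16). Knockdown and its control did not overlap, with a fall of 0.91 (SE 0.07, adjusted p = 5.23e-11). LPS+siAtg5 and LPS+Baf A1 did overlap and the difference was not called (-0.07, 95% interval -0.19 to 0.06, adjusted p = 0.326), but it was -0.36 after median-of-ratios scaling (adjusted p = 3.56e-05, in a range up to 0.628). How the authors assigned reads that match both Ass1 and its pseudogene is not stated.

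Gch1, the first enzyme of tetrahydrobiopterin synthesis, had the narrowest range of the 6, with group means from 37.1 to 54.5 FPKM. The LPS libraries held 41.8, 44.0 and 50.7 FPKM and the LPS+Baf A1 libraries 54.9, 52.5, 53.0, 58.2 and 54.0 FPKM. All bafilomycin A1 values were above the LPS values, by 0.26 (SE 0.06, adjusted p = 0.000849, 1.20-fold). In LPS+CLA the lowest, median and highest were 34.1, 37.6 and 42.05 FPKM, so that the highest, replicate 2, overlapped the LPS range (-0.26, SE 0.06, adjusted p = 0.000567). LPS+dNC stood at 42.3, 44.9 and 41.2 FPKM, overlapping LPS but with replicate 3 below every LPS library (-0.08, 95% interval -0.22 to 0.06, adjusted p = 0.307). The LPS+siAtg5 libraries, at 36.8, 38.4, 37.5, 37.0 and 35.5 FPKM, were all below LPS+dNC, by 0.20 (SE 0.06, adjusted p = 0.00436). They overlapped LPS+CLA (-0.03, 95% interval -0.13 to 0.08, adjusted p = 0.663), a difference that median-of-ratios scaling put at -0.23 (adjusted p = 0.00215, in a range up to 0.945).

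Nos2, the inducible nitric oxide synthase, covered the widest range. It was at 169.6, 169 and 222 FPKM in LPS and at 211, 238, 219, 225 and 237 FPKM in LPS+Baf A1. The groups overlapped through LPS replicate 3, and the difference of 0.28 was not called (SE 0.16, 95% interval -0.05 to 0.62, adjusted p = 0.142). It was called with only these groups in the fit (0.28, adjusted p = 0.0165) and without the 3 libraries that lay apart (0.41, adjusted p = 0.000138), in a range of adjusted p up to 0.355. In LPS+CLA the lowest, median and highest were 83.4, 86.2 and 164 FPKM, and replicate 2, the highest, was still below every LPS library. Nos2 fell by 0.95 with CLA (SE 0.16, adjusted p = 1.85e-05), and by 1.10 without replicate 2. LPS+dNC was higher than all other groups, at 540.0, 490.3 and 583 FPKM, 2.88-fold over LPS (1.53, SE 0.18, adjusted p = 2.81e-07) and 1.25 above LPS+Baf A1 on the log2 scale (adjusted p = 6.28e-07). The LPS+siAtg5 libraries were at 16.1, 19.2, 16.7, 17.4 and 13.9 FPKM, below all others, LPS+CLA being next (-2.46, adjusted p = 4.8e-13). The fall from 538 ± 46.2 to 16.7 ± 1.94 FPKM (SD, n = 3 and 5) was 32.3-fold, or -4.94 (SE 0.16, adjusted p = 8.12e-17), and 11.2-fold from LPS (-3.41, SE 0.16, adjusted p = 6.92e-14). In rank by group mean among 15725 symbols, Nos2 was at place 125 in LPS+dNC and at place 4087 in LPS+siAtg5.

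Arg1, the cytosolic arginase, moved the other way from Nos2 with CLA. It was at 5.40, 5.70 and 9.76 FPKM in LPS, and in LPS+CLA at 16.8 (lowest, replicate 2), 26.8 (median) and 27.7 FPKM (highest). Every CLA library was above every LPS library, 3.62-fold by the means (6.95 ± 2.44 and 25.2 ± 4.12 FPKM, SD, n = 3 and 6), with a change of 1.74 (SE 0.47, adjusted p = 0.00282). The LPS+Baf A1 libraries, at 8.80, 8.90, 7.04, 8.22 and 7.70 FPKM, all lay inside the LPS range, and the difference was not called (0.24, 95% interval -0.77 to 1.24, adjusted p = 0.7). Without the 3 libraries that lay apart it was 0.48 and called (adjusted p = 0.00252, in a range up to 0.9). The LPS+dNC libraries spread more than any other group, from 0.92 FPKM in replicate 1 to 15.1 and 21.7 FPKM in replicates 2 and 3. LPS+siAtg5 was at 2.38, 2.45, 1.41, 2.47 and 2.43 FPKM, below LPS+dNC replicates 2 and 3 and above replicate 1. The fall of 1.47 against LPS+dNC (SE 0.48, adjusted p = 0.00841) rested on these libraries. It was -2.58 without replicate 1, -1.05 without replicate 2 (adjusted p = 0.0721) and -0.80 without replicate 3 (adjusted p = 0.117), in a range down to 1.25e-13 over the alternatives. Against LPS, where no library overlapped, Arg1 fell by 1.27 (SE 0.48, adjusted p = 0.0216), and by 1.03 without LPS replicate 3, which was not called (adjusted p = 0.101, in a range down to 5.09e-08). The difference between LPS+dNC and LPS was 0.20 (SE 0.54, adjusted p = 0.77), and 1.31 without LPS+dNC replicate 1 (adjusted p = 1.78e-05, in a range of 1.9e-08 to 0.969).

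Arg2, the mitochondrial arginase, was highest with LPS alone, and each pair of neighbours in its order of levels was called without overlap of libraries. LPS came first at 19.8, 20.5 and 22.8 FPKM. LPS+Baf A1 followed at 10.3, 11.45, 9.22, 10.25 and 10.7 FPKM, 2.03-fold below LPS (-0.95, SE 0.13, adjusted p = 1.62e-06). Next was LPS+dNC at 5.74, 4.95 and 8.56 FPKM, lower than LPS+Baf A1 by 0.64 (SE 0.13, adjusted p = 0.00015) and 3.28-fold below LPS (adjusted p = 3.06e-09). In LPS+CLA the lowest, median and highest were 2.44, 2.73 and 4.23 FPKM, the highest again being replicate 2, and the group was 0.89 below LPS+dNC (adjusted p = 1.27e-06). Arg2 fell 7.13-fold with CLA, from 21.0 ± 1.54 to 2.95 ± 0.649 FPKM (SD, n = 3 and 6; -2.49, SE 0.13, adjusted p = 1.08e-13). LPS+siAtg5 was last at 0.85, 1.29, 1.35, 1.06 and 1.07 FPKM, below LPS+CLA by 0.89 (adjusted p = 1.69e-07). The fall was 5.71-fold against LPS+dNC (-1.78, SE 0.13, adjusted p = 2.16e-11) and 18.7-fold against LPS (-3.38, SE 0.13, adjusted p = 5.86e-16). At these low levels the log2(FPKM + 1) scale understates a fold change. Vti1b, which overlaps its 3′ end, reached its highest values in LPS+siAtg5, where Arg2 was lowest.

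**Figure D2:**
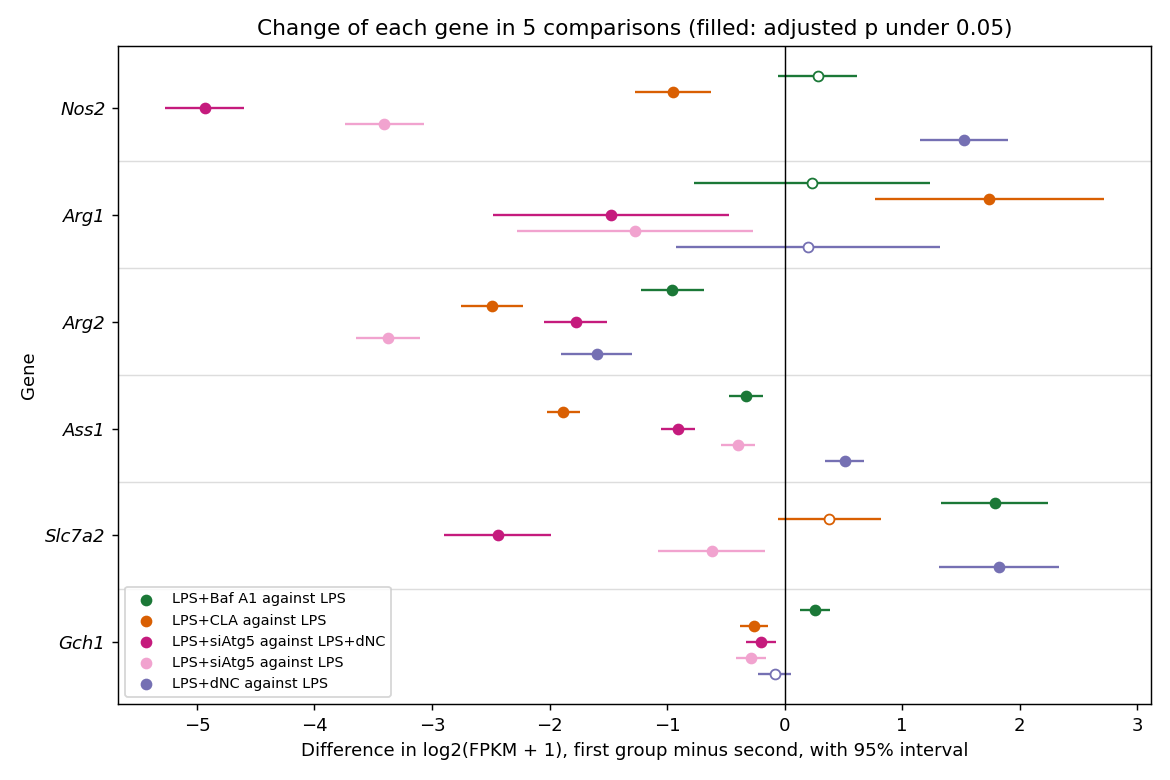
Difference in log2(FPKM + 1), first group minus second (horizontal axis), for each of the 6 genes (vertical axis) in 5 comparisons, with points for the limma estimate, bars for its 95% interval, and filled points where the adjusted p is under 0.05. All 6 points of LPS+siAtg5 lie left of 0 against either control, from -4.94 for Nos2 to -0.20 for Gch1 against LPS+dNC, while Arg1 with CLA lies right of 0 at 1.74.

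The choice of control bears on the knockdown result, since LPS+dNC itself differed from LPS. Slc7a2, Nos2 and Ass1 were called higher in LPS+dNC than in LPS (29% of all genes were) and Arg2 lower (28.1% were), while Arg1 and Gch1 were not called. Against LPS in place of LPS+dNC, all 6 genes were again lower in LPS+siAtg5, with 61.2% of all genes called higher and 15.6% lower, and a median of -0.95 for the 6 genes against 0.31 over all genes. The shares became 35.8% higher and 34.6% lower after median-of-ratios scaling, and 34.4% and 38.1% after quantile normalization, with all 6 genes called lower under both. The knockdown changes against LPS, relative to that median, were -3.72 for Nos2, -3.69 for Arg2, -1.58 for Arg1, -0.93 for Slc7a2, -0.71 for Ass1 and -0.60 for Gch1. The comparisons against LPS+dNC and against LPS share the 5 knockdown libraries.

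Bafilomycin A1 and Atg5 knockdown both act on autophagy, and the difference between their effects, each against its own control, was tested in the same model. It was called for all 6 genes, each with the knockdown effect lower, where 52.3% of all genes were called higher and 20.4% lower. The difference was largest for Nos2 (-5.22, SE 0.23, adjusted p = 3.79e-14) and Slc7a2 (-4.23, SE 0.31, adjusted p = 2.11e-10). Slc7a2 rose with bafilomycin A1 and fell with the knockdown, as did Gch1 (-0.46, SE 0.09, adjusted p = 5.32e-05), and these opposite directions also held after both scalings. Arg2 and Ass1 fell with both, and further with the knockdown when each was set against its own control (-0.83, adjusted p = 0.000389, and -0.58, adjusted p = 2e-05). For Ass1, LPS+dNC was itself above LPS by 0.51. Against LPS its change was -0.40 with the knockdown and -0.33 with bafilomycin A1. Set directly against each other, these 2 groups were not called apart for Ass1 (-0.07, adjusted p = 0.326), except after median-of-ratios scaling (-0.36). For Arg1 the difference of -1.71 (SE 0.68, adjusted p = 0.0297) was not called in 6 of 26 alternatives, among them those without LPS replicate 1 (-1.57, adjusted p = 0.0697), LPS replicate 2 (-1.61, adjusted p = 0.0648), LPS+dNC replicate 2 (-1.28, adjusted p = 0.102) and LPS+dNC replicate 3 (-1.03, adjusted p = 0.134). Its adjusted p went down to 4.77e-12, and without LPS+dNC replicate 1 the difference was -2.82.

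Set directly against bafilomycin A1, CLA left Arg1 higher (1.51, SE 0.40, adjusted p = 0.00332) and the other 5 genes lower, with 35.4% of all genes called higher and 19% lower. The differences were -1.55 for Ass1, -1.54 for Arg2, -1.41 for Slc7a2, -1.23 for Nos2 and -0.52 for Gch1. In the 4 contrasts between the remaining groups, called genes were the rule: 75.3% of all genes between LPS+siAtg5 and LPS+Baf A1, 66.3% between LPS+siAtg5 and LPS+CLA, 66.2% between LPS+dNC and LPS+Baf A1, and 71.4% between LPS+dNC and LPS+CLA. Against that background, 5 of the 6 genes were called in each of the contrasts of LPS+siAtg5, 4 between LPS+dNC and LPS+Baf A1, and all 6 between LPS+dNC and LPS+CLA. In this last contrast, Gch1 differed by 0.18 (adjusted p = 0.0109) and overlapped, and without LPS+dNC replicate 2 it was not called (0.14, adjusted p = 0.0725, in a range down to 0.0008). Arg1 was lower in LPS+dNC than in LPS+CLA by 1.54 (adjusted p = 0.00594), and by 0.44 without LPS+dNC replicate 1 (adjusted p = 0.0444, in a range of 0.0002 to 0.0534). Between LPS+dNC and LPS+Baf A1, the Arg1 means were 12.6 ± 10.6 and 8.13 ± 0.778 FPKM (SD, n = 3 and 5) while the fitted difference was -0.04 (adjusted p = 0.953). Without LPS+dNC replicate 1 it was 1.07 (adjusted p = 4.82e-05, in a range of 1.95e-07 to 0.994).

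The RNA levels of the enzymes that compete for arginine were set against each other within each library as a ratio of FPKM. Such a ratio of RNA does not give the balance of the enzymes themselves. Nos2 exceeded Arg1 in every library. The ratio was 31.4, 29.7 and 22.7 in LPS and 23.9, 26.7, 31.1, 27.4 and 30.8 in LPS+Baf A1, so these groups overlapped. In LPS+CLA it had a lowest value of 3.10, a median of 3.17 and a highest of 9.75, the last in replicate 2. In LPS+siAtg5 it was 6.77, 7.83, 11.8, 7.05 and 5.71. The CLA and knockdown libraries thus lay below all other libraries by this ratio, with both genes lower in the knockdown but Arg1 higher with CLA. The LPS+dNC libraries gave 587, 32.5 and 26.9, the first because Arg1 was at 0.92 FPKM in replicate 1. The ratio of Nos2 to Arg1 leaves out Arg2, so it does not describe both arginases together. Means in LPS and LPS+CLA were 21.0 and 2.95 FPKM for Arg2, and 6.95 and 25.2 FPKM for Arg1. Between the arginases, Arg1 was below Arg2 in every LPS library (ratio 0.273 to 0.429) and in every LPS+Baf A1 library (0.722 to 0.858). It was above Arg2 in every LPS+siAtg5 library (1.04 to 2.80) and LPS+CLA library (3.98 to 10.9), and on both sides in LPS+dNC (0.160 to 3.05). The ratio of Ass1 to Nos2 was 2.78 to 3.60 in LPS+siAtg5 and 0.105 to 0.401 in all other libraries. These ratios are descriptions and were not tested.

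**Figure D3:**
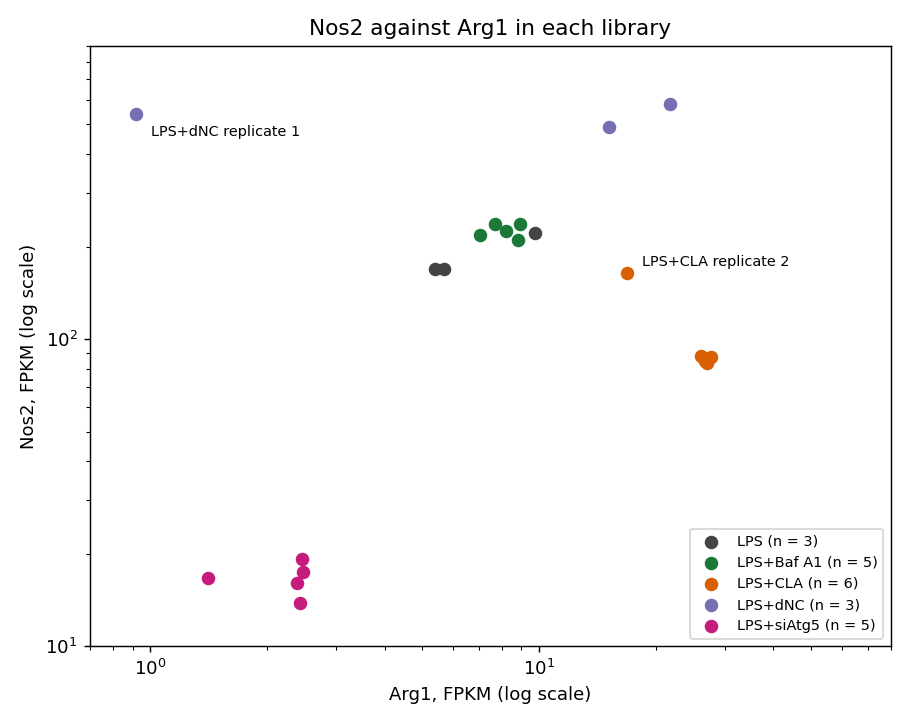
Level of Nos2 (vertical axis, FPKM, log scale) against that of Arg1 (horizontal axis, FPKM, log scale), 1 point per library. The LPS and LPS+Baf A1 libraries lie together, 5 LPS+CLA libraries lie to the lower right with replicate 2 between them and the LPS libraries, the LPS+siAtg5 libraries lie at the lower left, and LPS+dNC replicate 1 stands alone at the upper left with Arg1 at 0.92 FPKM.

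The other genes of the pathway were read from 6 lists, beside the shares of all genes called given above. Knockdown changes are against LPS+dNC unless LPS is named, and the knockdown is also given against LPS where the control changes a direction or a call or moves a value by over 1.5 times. Of 11 transporters of arginine and ornithine 6 passed the filter on low values. In this list 2 were called higher and 2 lower with bafilomycin A1, and 3 and 2 with CLA. With the knockdown the count was 4 and 1 (2 and 2 after either scaling). Against LPS it was 3 and 2 (1 and 2 after median-of-ratios scaling, 1 and 4 after quantile normalization). Without the libraries that lay apart, 1 was called higher and 3 lower with bafilomycin A1, and 3 and 3 with CLA. Slc7a1, the transporter most cells use for arginine, was not called with bafilomycin A1 (11.96 ± 2.50 FPKM in LPS, 11.1 ± 0.803 FPKM with the drug) or with CLA (10.57 ± 1.302 FPKM, -0.15, adjusted p = 0.225). With CLA it was called lower after either scaling (-0.28 and -0.27) and without the libraries that lay apart (-0.26, adjusted p = 0.00427). In the knockdown it was called at 6.95 ± 0.317 against 5.41 ± 0.8065 FPKM (0.32, adjusted p = 0.0123), but at 0.04 after median-of-ratios scaling (adjusted p = 0.737) and -0.09 after quantile normalization. Against LPS it was called in the opposite direction (-0.69, adjusted p = 8.29e-06), LPS+dNC itself being below LPS by 1.00. Slc3a2, the heavy chain of several amino acid exchangers, fell from 358 ± 38.3 FPKM in LPS to 246 ± 7.12 FPKM with bafilomycin A1 (-0.54) and 199.8 ± 4.06 FPKM with CLA (-0.83), and from 264 ± 35.5 to 213 ± 5.56 FPKM in the knockdown (-0.30, and -0.74 against LPS). Its light-chain partner Slc7a6, which exchanges arginine for glutamine, rose with CLA (8.03 ± 2.47 to 16.0 ± 1.01 FPKM, 0.95) and in the knockdown (3.64 ± 0.262 to 10.1 ± 1.39 FPKM, 1.25, but 0.33 with overlap against LPS). With bafilomycin A1 its change of 0.46 was called with overlap, and not without the libraries that lay apart (0.27, adjusted p = 0.0607). Slc25a15, the mitochondrial ornithine carrier, was low in all groups (0.65 to 1.61 FPKM by the means), and Slc38a9, the lysosomal arginine transporter and sensor, fell slightly with bafilomycin A1 (-0.38) and CLA (-0.34), with overlap.

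Of 11 genes listed for the urea cycle and the use of arginine 7 were tested, and Otc, Cps1, Nags and Agmat were not analysed here. The 7 were Asl, Oat, Azin2, Gatm, Gamt, Ddah1 and Ddah2. Of these only Asl belongs to the urea cycle, and not all use arginine itself, so the counts do not speak for that cycle. In this list 4 were called higher and 1 lower with bafilomycin A1, and 1 and 2 with CLA. With the knockdown the count was 6 and 0, with a median of 1.71 against 0.34 over all genes. Against LPS the knockdown count was 5 and 0, with a median of 0.93 against 0.31. After either scaling that count against LPS was 4 higher and 2 lower. Without the libraries that lay apart, the CLA count was 2 higher and 1 lower and the knockdown count 7 and 0. Asl, which releases arginine in the step after Ass1, rose from 19.2 ± 1.55 to 24.2 ± 1.39 FPKM with bafilomycin A1 (0.32, adjusted p = 0.000547). It was not called with CLA (21.4 ± 1.45 FPKM, 0.15, adjusted p = 0.0598) or in the knockdown (18.1 ± 0.610 against 16.3 ± 2.28 FPKM, adjusted p = 0.0663). Oat, the aminotransferase that leads ornithine towards proline and glutamate, rose in all 3 comparisons, from 23.2 ± 1.40 FPKM in LPS to 38.8 ± 1.29 (bafilomycin A1) and 46.4 ± 5.03 FPKM (CLA), and from 13.1 ± 0.620 to 45.2 ± 2.22 FPKM in the knockdown (0.72, 0.96 and 1.71, the last being 0.93 against LPS). Gatm, which spends arginine on creatine, fell with bafilomycin A1 (16.7 ± 0.919 to 11.02 ± 0.588 FPKM, -0.56) and CLA (14.0 ± 1.88 FPKM, -0.25, not called without the libraries that lay apart, adjusted p = 0.0705). In the knockdown Gatm was at 16.0 ± 1.22 FPKM, called higher than LPS+dNC at 3.14 ± 0.317 FPKM (2.04) but not called against LPS (-0.06, adjusted p = 0.553), LPS+dNC being below LPS by 2.10. Ddah1, which degrades methylarginines that inhibit nitric oxide synthases, rose from 0.693 ± 0.542 to 18.4 ± 0.829 FPKM in the knockdown (3.56), and by 3.52 against LPS. Over those same libraries the astrocyte marker sum went from at most 29.6 to at least 370.8 FPKM, and its part in the rise of Ddah1 was not tested.

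The polyamine and proline list had 16 of 18 genes tested. It mixes genes of synthesis with genes of control and breakdown, such as Oaz1, Smox and Paox, so its counts do not speak for synthesis alone. With bafilomycin A1 10 were called higher and 2 lower, with CLA 13 and 1, and with the knockdown 13 and 1, with medians of 0.39, 0.69 and 0.86 against 0.04, 0.09 and 0.34 over all genes. Against LPS the knockdown count was 13 and 0, or 11 and 2 after median-of-ratios scaling and 10 and 1 after quantile normalization. After either scaling 12 were called higher in the knockdown against LPS+dNC and 2 or 3 lower, and with CLA 11 or 12 higher. Odc1, which makes putrescine from ornithine and shares 31.3% of its sequence with other genes, was not called with bafilomycin A1 (22.2 ± 1.77 and 22.6 ± 0.590 FPKM, adjusted p = 0.834). It rose with CLA to 35.5 ± 4.45 FPKM (0.64, adjusted p = 3.72e-06) and in the knockdown from 25.6 ± 4.40 to 48.1 ± 2.74 FPKM (0.90, adjusted p = 2.17e-08). Sms, spermine synthase, rose with bafilomycin A1 (0.69), with CLA (1.17) and from 2.18 ± 0.242 to 19.5 ± 1.67 FPKM in the knockdown (2.68, and 1.16 against LPS). Oaz1, an antizyme that turns ornithine decarboxylase over (24% shared sequence), rose in all 3 comparisons (0.88 with bafilomycin A1, 0.94 with CLA, 1.36 in the knockdown). Amd1, which supplies the aminopropyl donor, was called higher by 1.02 with CLA and 1.23 in the knockdown, but shares 82.8% of its sequence, chiefly with Amd2. Among the few that fell were Smox, spermine oxidase, with bafilomycin A1 (-0.33) and in the knockdown against LPS+dNC (65.1 ± 7.51 to 38.8 ± 0.651 FPKM, -0.72), and Paox, which oxidizes acetylated polyamines (33.1% shared sequence), with CLA (3.67 ± 0.348 to 2.10 ± 0.386 FPKM, -0.60). Against LPS the knockdown value of Smox was not called (0.12, adjusted p = 0.196), LPS+dNC being above LPS by 0.84, and Paox, not called against LPS+dNC, was called higher (0.73).

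The tetrahydrobiopterin list had 5 of 7 genes tested, and Gchfr and Pcbd1 were not analysed here. In it 3 were called higher and 1 lower with bafilomycin A1 and likewise with CLA. In the knockdown 2 were called higher and 3 lower, or 3 and 1 against LPS (2 and 1 after either scaling). Pts, the enzyme after Gch1, was not called with bafilomycin A1 (9.94 ± 1.16 and 9.65 ± 0.761 FPKM) or CLA (10.8 ± 0.737 FPKM), and fell in the knockdown from 15.2 ± 1.53 to 11.3 ± 1.53 FPKM with overlap (-0.40, adjusted p = 0.000455). Against LPS it was not called there (0.17, adjusted p = 0.108), LPS+dNC being above LPS by 0.56. Spr, sepiapterin reductase, rose in all 3 (0.83, 0.84 and 0.67), as did Qdpr, which regenerates the oxidized cofactor (0.86, 1.03 and 1.47; 6.92 ± 1.36 to 20.7 ± 0.8125 FPKM in the knockdown). In the knockdown Gch1 was thus lower, and Spr and Qdpr higher, than in LPS+dNC and than in LPS (0.74 and 1.02), while Pts was called lower against LPS+dNC and not against LPS.

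Among 13 genes for nitric oxide synthases, their partners and the response to nitric oxide, 8 were tested. Nos1 was below the filter and Nos3 was not analysed here. With bafilomycin A1 5 were called higher and 1 lower (2 lower without the libraries that lay apart), and with CLA 6 and 1. In the knockdown the count was 8 and 0 (6 after median-of-ratios scaling, 7 after quantile normalization). Against LPS it was also 8 and 0 (6 and 1 after median-of-ratios scaling, 5 and 0 after quantile normalization). Adh5, which breaks down nitrosoglutathione, rose from 33.0 ± 1.6 to 44.2 ± 1.46 FPKM with bafilomycin A1 (0.41). It was also called higher with CLA (0.355) and in the knockdown (0.525). Gucy1a1, a subunit of the nitric oxide receptor, was at 0.145 to 1.59 FPKM by the group means.

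All 10 transcription factors listed for Nos2 and Arg1 were tested. With bafilomycin A1 1 was called higher and 4 lower (2 and 5 without the libraries that lay apart). With CLA the count was 4 and 5 (3 and 6 after either scaling). In the knockdown it was 3 and 6 (1 and 7 after median-of-ratios scaling, 3 and 6 after quantile normalization). Against LPS it was 2 and 8 (1 and 8 after either scaling). Irf1, an interferon-induced activator of Nos2, fell in all 3: from 194 ± 13.9 FPKM in LPS to 69.8 ± 3.67 with bafilomycin A1 (-1.46, adjusted p = 6.67e-14) and 43.1 ± 3.74 with CLA (-2.15, adjusted p = 1.75e-17), and from 101.5 ± 6.09 to 64.6 ± 2.99 FPKM in the knockdown (-0.64, adjusted p = 5.96e-09, and -1.57 against LPS). Whether Irf1 bears on the level of Nos2 in these libraries was not tested. Rela, the NF-kB subunit p65, fell with bafilomycin A1 (-0.15), with CLA (-0.43) and in the knockdown (54.1 ± 3.62 to 31.5 ± 0.785 FPKM, -0.76). Stat3 fell with CLA with overlap (-0.24) and in the knockdown from 112 ± 3.18 to 61.2 ± 1.26 FPKM (-0.86, and -0.18 against LPS). Cebpb, which binds both the Nos2 and the Arg1 gene, was not called with bafilomycin A1 (115 ± 8.73 and 108 ± 4.38 FPKM, adjusted p = 0.386) or CLA (104 ± 9.60 FPKM, adjusted p = 0.104, but called lower after either scaling, with adjusted p = 0.00881 and 0.0275). It fell in the knockdown from 150 ± 10.03 to 87.4 ± 7.51 FPKM (-0.78, adjusted p = 2.66e-09, and -0.39 against LPS). Stat6, the mediator of interleukin 4, rose with bafilomycin A1 (0.26) and CLA (51.8 ± 1.66 to 67.7 ± 4.02 FPKM, 0.38). It was also called higher in the knockdown (0.23, adjusted p = 0.000165), by less than the median of 0.34 over all genes. Hif1a, the oxygen-regulated factor that acts on both genes, rose with CLA from 83.4 ± 3.45 to 158 ± 26.0 FPKM (0.90) and fell in the knockdown (-1.08, and -0.51 against LPS). Pparg was low, at 0.980 ± 0.344 FPKM in LPS and 2.57 ± 0.991 FPKM with CLA (0.80, adjusted p = 0.00625, with overlap), and rose in the knockdown from 0.59 ± 0.626 to 3.14 ± 0.431 FPKM (1.44).

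**Figure D4:**
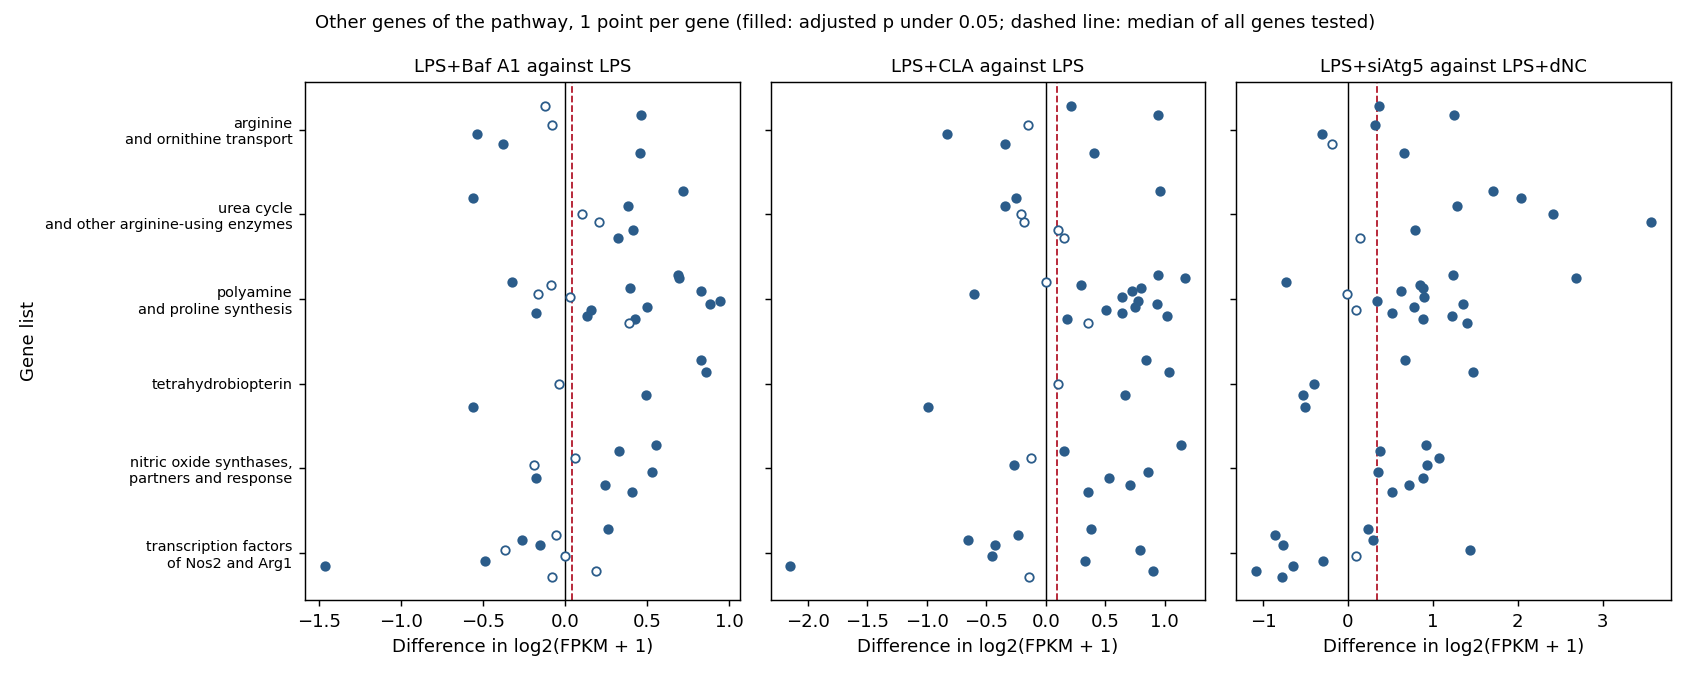
Difference in log2(FPKM + 1), first group minus second (horizontal axis, with its own scale per panel), of the other genes of the pathway in 6 lists (vertical axis), 1 point per gene tested, in the 3 comparisons of the design, with filled points where the adjusted p is under 0.05 and a dashed line at the median of all genes tested (0.04, 0.09 and 0.34). Most polyamine and proline genes lie right of the dashed line in each panel, and Irf1 is the leftmost point of the transcription factors with bafilomycin A1 (-1.46) and CLA (-2.15).

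Genes with profiles most like each member were found by the root-mean-square difference of log2(FPKM + 1) over the 22 libraries, each profile centred on its own mean, among 10871 genes. Nearest to Nos2 were Cxcl2 (0.75), Scimp (0.75) and Csf3 (0.75), against a spread of Nos2 around its own mean of 1.64. Nearest to Slc7a2 were Trem1 (0.24), Adora2b (0.30) and Rcl1 (0.31), against its own spread of 1.00. For Arg2 they were Kdr (0.45), Trib3 (0.50) and Thbs1 (0.50), against 1.15. Thbs1, for example, had means of 309.7 FPKM in LPS, 153 in LPS+Baf A1, 158 in LPS+dNC, 32.1 in LPS+CLA and 33.3 FPKM in LPS+siAtg5. Arg1 was most like Upp1 (0.44), Ccl6 (0.58) and Folr2 (0.74), against 1.24, and Ass1 most like Oasl1 (0.26), Pmp22 (0.29) and Mertk (0.31), against 0.84. The neighbours of Gch1 were Cmtm7 (0.10), Fth1 (0.11) and Atf6b (0.12), against 0.23. No member was among the 3 nearest of another. The closest by place was Slc7a2, 17th among the neighbours of Nos2 (0.96), with Arg2 35th (1.04), while Arg1 was at place 2164. In the other direction, Nos2 was at place 1191 among the neighbours of Slc7a2 and at 679 among those of Arg2. By distance the closest members were Ass1 and Gch1 (0.76). These distances describe libraries that share groups, and replicates within a group are not separate conditions.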

How the data were processed

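RNA of 22 microglia libraries in 5 groups was measured by the authors and deposited as FPKM, 1 value per gene symbol with 2 decimals. The unit is named, per the file headers, in all groups but LPS+dNC, whose 3 columns were taken to be FPKM too, though their sums are above those of all other libraries. The tools, per the submitters' processing notes, were CASAVA 1.7, fastp 0.18.0, Bowtie2 2.2.8, HISAT2 (no version) and StringTie 1.3.1. The sources used here give neither their settings nor the genome build, annotation or use of strand. The table has 15726 lines for 15725 symbols, and the symbol with 2 lines is no gene named here. Each library's own file held the same values as its column in all 22 cases. Library sums were 469750 to 575125 FPKM and the smallest value above 0 was 0.01, so reads per value could not be recovered, depth is unknown and no counting interval is given.

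Groups came from the sample titles. Values were analysed as log2(FPKM + 1), which understates fold changes of low genes. The 11070 genes that reached 1 FPKM in 3 or more libraries entered one limma model of 5 group means (limma 3.58.1, R 4.3.3), moderated with the trend and robust settings of eBayes on 17 residual degrees of freedom. Each comparison was a two-sided contrast, with p-values adjusted by the Benjamini-Hochberg method across the 11070 genes, and calls were made at an adjusted p under 0.05. The fit was tested on simulated data. Sequence sharing was counted in GENCODE transcripts, and promoters are from RefSeq.

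The 6 members, the lists and the rule for naming genes were chosen with earlier results of these data known, and support nothing by themselves. The rule named all 6 members, of each pathway list up to 2 called genes per direction and main comparison with the smallest adjusted p, always Odc1, Asl, Slc7a1, Pts, Gchfr, Irf1 and Cebpb, and the 3 nearest profiles of each member. Alternatives were a pseudocount of 0.1, no filter or a filter of 5 FPKM, median-of-ratios scaling, quantile normalization, only the compared groups fitted, a replicate block, plain empirical Bayes, each library left out in turn, and all 3 libraries that lie apart left out. One alternative, without LPS+CLA replicate 2 and LPS+dNC replicate 1 together, was added after seeing the data, as were the counts of the pathway lists under the scalings and without the 3 libraries. Some genes and sequences that this rule names are not reported here.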

Additional observations from a re-analysis of the deposited data

Results flagged for a closer look

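In 6 of the 18 combinations of a gene and a group of 5 or 6 libraries, 1 library was set off from the rest of its group by most of the group's range. By chance alone about 5% of such groups would show this. Of the 6, 4 were LPS+CLA replicate 2, at 164.24 FPKM for Nos2 (the other CLA libraries held 83.4 to 87.9 FPKM), 16.84 FPKM for Arg1 (26.0 to 27.7), 4.23 FPKM for Arg2 (2.44 to 2.94) and 155.07 FPKM for Slc7a2 (53.8 to 63.4). For Nos2, Arg1 and Arg2 this library lay on the LPS side of its group, and for Slc7a2 above both groups. The others were LPS+siAtg5 replicate 3 for Arg1 (1.41 FPKM against 2.38 to 2.47) and LPS+Baf A1 replicate 1 for Ass1 (50.16 FPKM against 53.5 to 54.0).

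The siAtg5 effect against LPS+dNC and the bafilomycin A1 effect against LPS differed for all 6 genes by the limma test of the difference, with the knockdown effect lower in each case. The differences were -5.218 for Nos2, -4.229 for Slc7a2, -1.711 for Arg1, -0.825 for Arg2, -0.577 for Ass1 and -0.462 for Gch1 on the log2 scale. The effects have different control libraries, and what transfection and the agents each contribute to the difference cannot be told apart.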

How the results depend on the processing

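Of 18 member results in the 3 main comparisons, 14 kept their direction and side of the threshold under every alternative run, and 322 of 330 single alternatives changed nothing. No call in these 18 changed sign. Nos2 with bafilomycin A1 became called with only the groups of the comparison fitted (0.28, adjusted p = 0.0165), without the 3 libraries that lie apart (0.41) and without LPS+CLA replicate 2 and LPS+dNC replicate 1 (0.28, adjusted p = 0.00688). Without the 3 libraries Arg1 with bafilomycin A1 also became called (0.48), which made 4 members higher in place of 2. Arg1 in the knockdown was not called with only its groups fitted (-1.47, adjusted p = 0.108) and ranged from -2.58 to -0.80 when single libraries were left out. Same-number correlations of deviations from the group means were -0.113 to 0.091. Libraries that lie apart weigh on these deviations, so the correlations do not settle whether replicate numbers mark related libraries. With a replicate block, Slc7a2 with CLA was called (0.52, adjusted p = 0.0312), which made 2 members higher with CLA, and no other call of the 18 changed. Over all genes, 6594 were called higher and 2394 lower in the knockdown, against 4206 and 4362 after quantile normalization and 3981 lower after median-of-ratios scaling. Arg1 in LPS+dNC against LPS+Baf A1 turned from -0.04 to 1.07 without LPS+dNC replicate 1, alone, with LPS+CLA replicate 2 or with all 3 libraries, and ranged from -0.71 to 1.07 when single libraries were left out. The cause was not tested. Without read counts, the noise behind values near 1 FPKM, as for Arg1 and Arg2 in LPS+siAtg5, is unknown.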
